A study of Homo sapiens with 82 samples.

Results

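The RNA response of HT29 cells to 24 h of rosiglitazone was measured in 8 of the 82 samples of the series, 4 libraries with rosiglitazone and 4 with its solvent DMSO. The libraries were chosen by their labelled agent and time, and every gene with enough counts was examined, which was 21781 of the 51838 genes in the count table. HT29 is an established human line from a colorectal adenocarcinoma, so both groups stand for 1 cell line in culture. Rosiglitazone was given at 10 μM, and per the study's methods the cells of every group had been moved to a medium free of phenol red with charcoal-treated serum before the drug or DMSO was added. Treatments were done in quadruplicate per the methods, but neither these nor the labels say that the 4 replicates were separate cultures, so p-values measure the spread between these libraries, which may be technical.

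Rosiglitazone is a thiazolidinedione, a synthetic ligand of the nuclear receptor PPARG. PPARG binds DNA as a heterodimer with a retinoid X receptor at direct repeats of a hexamer separated by 1 base, called DR1 elements, and an agonist favours the exchange of corepressors for coactivators there. The receptor is best known as the master regulator of adipocyte differentiation, where it drives genes that take up, bind and store fatty acids, and it is also abundant in the epithelium of the colon. Related receptors, PPARA and PPARD, recognise similar elements in genes of fatty acid oxidation. The question of the comparison is which genes of a colon cancer line respond within 1 day of PPARG agonist treatment.

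Levels are CPM, counts scaled to library size, with the trimmed mean of M-values (TMM) as scaling. Summed levels of marker lists are the exception and were scaled to total counts alone. TMM factors were 1.017 to 1.064 with DMSO and 0.959 to 0.980 with rosiglitazone, so TMM would raise the treated sums relative to those with DMSO. Fold changes, standard errors and adjusted p-values come from edgeR's quasi-likelihood test with Benjamini-Hochberg adjustment over all tested genes. A gene was called when its adjusted p was under 0.01 and its fold change at least 2, and it passed the test when its adjusted p was under 0.01 at any fold. Total counts ran from 30834003 to 39955727 in the DMSO libraries and from 33354968 to 40617171 with rosiglitazone, and the biological coefficient of variation was 0.0981. The first principal component of the 16 libraries of this time point was computed on the most variable genes only and held 21.6% of the variance of those genes. It separated the rosiglitazone libraries, at 20.27 to 21.94, from all others, at -12.66 to -2.95. All 12 markers of intestinal epithelium were detected, with a summed level of 19590 to 20340 CPM with DMSO and 20320 to 22070 CPM with rosiglitazone. Fibroblast markers summed to 3.95 to 6.30 and 4.09 to 5.81 CPM, with COL1A2, COL3A1, DCN and PDGFRA at 0 in every library, and endothelial markers to 0.375 to 0.973 and 0.246 to 0.588 CPM. Leukocyte markers summed to 471 to 573 and 533 to 586 CPM, with CD3E at 0, and were mostly LYZ, which secretory cells of the gut also express. In bulk RNA, fewer cells of a type and less RNA per cell cannot be told apart.

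Rosiglitazone called 171 genes higher, 0.785% of those tested, and 306 genes lower, 1.4%. At a fold change of at least 1.5 the counts were 389 (1.79%) and 684 (3.14%), and at any fold 1262 (5.79%) and 1428 (6.56%) genes passed the test. The shares at any fold are the base for the counts of list members past the test given below. The gene lists were written with earlier results of these data known. A list share above this base therefore describes the members and is no independent test of the list. The base also holds genes that are not protein-coding. In 169 of the 171 genes called higher, all 4 treated libraries lay above all 4 DMSO libraries, and in 301 of the 306 genes called lower they lay below. Over all tested genes 12.8% and 12.9% separated in this way. Changes beyond 4-fold were seen for 30 genes called higher and 52 called lower. With library size as the only scaling, 134 genes were higher and 415 lower, 24.4% against 35.8% of calls in the upward direction, and the median log2 fold change of all genes moved by -0.09 from -0.02.

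The genes called higher were at higher levels than those called lower. Their median average log2 CPM was 2.44, against 0.95 for the genes called lower and 2.76 for all tested genes. Among genes with an average log2 CPM of 7 or over, 15 were called higher and 4 lower, while between -1 and 1 the counts were 51 and 113. The mean CPM of the genes called higher summed to 4035 with DMSO and 9937 with rosiglitazone, and that of the genes called lower to 3069 and 1211. Of the genes called higher 80.1% were protein-coding, and of those called lower 82.4%, against 60.0% of all tested genes.

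**Figure D1:**
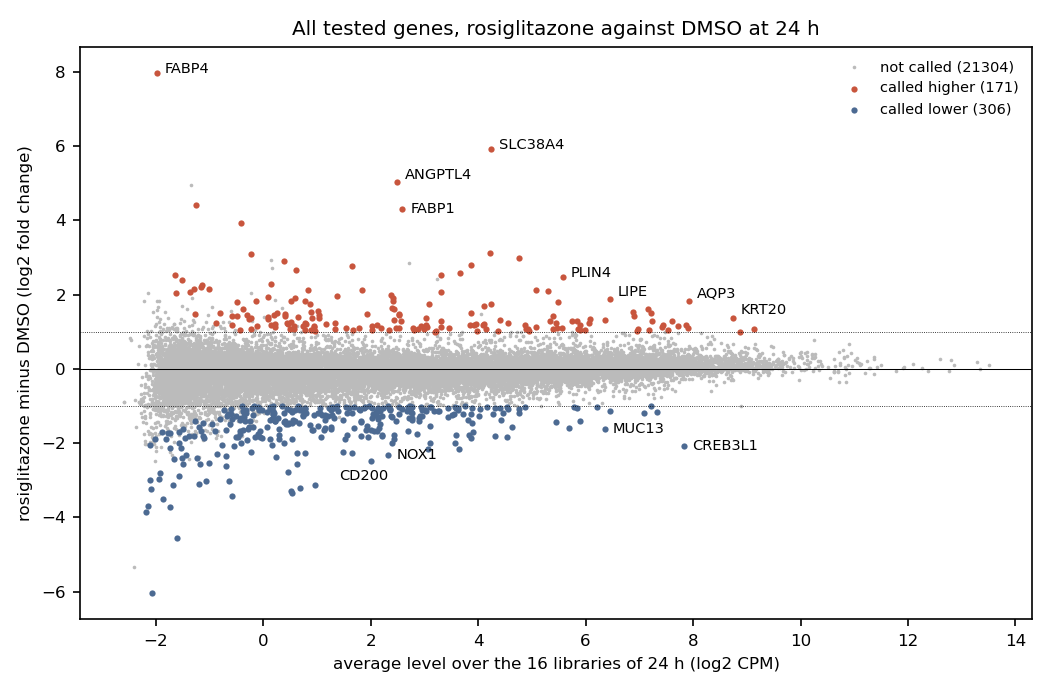
Log2 fold change of rosiglitazone against DMSO at 24 h (y axis) against average log2 CPM (x axis, over the 16 libraries of 24 h) for the 21781 tested genes, one point a gene. Points in colour are the 171 genes called higher and the 306 called lower, with named genes labelled. Calls above 0 reach into the most abundant genes on the right, while those below 0 gather at low and middle abundance.

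The receptor itself was lower after its agonist. PPARG was at 45.5, 41.8, 46.5 and 47.4 CPM in the DMSO libraries and at 30.4, 32.3, 30.6 and 35.2 CPM with rosiglitazone. The groups did not overlap, and the log2 fold change was -0.50 (standard error 0.07, adjusted p = 2.23e-05), short of a 2-fold change. PPARD, which responds to fatty acids in many epithelia, rose from 34.2 ± 2.25 to 65.5 ± 6.76 CPM (mean ± SD, n = 4; log2 fold change 0.94, adjusted p = 6.06e-08). The obligate partner RXRA was at 269.9 ± 19.3 and 289.5 ± 13.1 CPM, with a log2 fold change of 0.10 (standard error 0.12, adjusted p = 0.634). Of the 5 tested receptors of the PPAR and RXR families, only PPARD passed the test upward and only PPARG downward.

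Coregulators and partner factors moved both ways. Of 14 tested, 5 passed the test upward and 2 downward, and 1 was called. That gene, CEBPA, encodes a factor that works with PPARG in fat cell differentiation, and it stood at 31.8, 35, 29.6 and 33.8 CPM with DMSO and 65.7, 66.6, 69.3 and 69.2 CPM with rosiglitazone. The groups were apart, with a log2 fold change of 1.06 (standard error 0.10, adjusted p = 1.09e-07). PPARGC1B, a coactivator of mitochondrial genes, stopped just short of the 2-fold limit at 0.99 (adjusted p = 1.17e-08). CEBPD and CEBPB, early factors of the same family as CEBPA, rose by 0.80 and 0.52, as did NRIP1 by 0.43, whereas the p160 coactivators NCOA1 and NCOA2 fell by 0.49 and 0.33 on the log2 scale.

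FABP1, ANGPTL4, FABP4 and ACSL5 were called higher among the genes that take up, bind and activate fatty acids. They were 4 of 20 tested members (0.785% of all genes were called higher), 0 were called lower, 7 passed the test upward (5.79% of all genes), 0 passed downward and 13 did not pass. The median log2 fold change was 0.23 against -0.02 over all genes. FABP1, the fatty acid binding protein of liver and gut epithelium, was at 0.538, 1.3, 1.06 and 0.837 CPM with DMSO and at 13.4, 19.2, 22.2 and 18.2 CPM with rosiglitazone. Every treated library lay far above every DMSO library, and the log2 fold change was 4.30 (standard error 0.30, adjusted p = 3.26e-08). ANGPTL4, a secreted inhibitor of lipoprotein lipase, was at 0.44, 0.191, 0.894 and 0.837 CPM with DMSO and 21.1, 17.7, 21.4 and 18.8 CPM with rosiglitazone. The groups were again far apart (log2 fold change 5.02, standard error 0.28, adjusted p = 9.15e-10).

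FABP4, the fatty acid binding protein of adipocytes and a textbook PPARG target, went from no reads to a low level. Its raw counts were 0 in all 4 DMSO libraries and 39, 17, 29 and 32 with rosiglitazone. Against a floor of 3 counts over the DMSO group, it was at least 42.3-fold higher with rosiglitazone, and the treated libraries reached 1, 0.486, 0.907 and 0.97 CPM. At 48 h its counts were 0 with DMSO and 1, 2, 7 and 3 with rosiglitazone. ACSL5, which activates long-chain fatty acids in the intestine, was already abundant and moved from 149, 140.1, 146 and 142 CPM to 309, 323, 325 and 323 CPM. The groups did not overlap (log2 fold change 1.15, standard error 0.05, adjusted p = 8.06e-13). Smaller increases were found for SLC27A4, a fatty acid transporter of enterocytes, at 0.61, for the acyl-CoA synthetase ACSL1 at 0.54 and for DBI, the acyl-CoA binding protein, at 0.51.

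Lipid droplet genes held the most calls of any list, 9 higher and 0 lower among 29 tested, against 0.785% and 1.4% of all genes. Upward 11 passed the test, downward 3, and 15 did not pass. The median log2 fold change of the list was 0.13 against -0.02 over all genes. The perilipins coat the droplet and control access of lipases to it. PLIN2, the perilipin of most cell types, was at 4.89, 4.99, 4.31 and 4.47 CPM with DMSO and 30.4, 33.3, 30.8 and 34.1 CPM with rosiglitazone. The groups were separate, and the log2 fold change was 2.79 (standard error 0.10, adjusted p = 6.74e-14). PLIN4 stood at 16.7, 20.7, 17.4 and 20.3 CPM with DMSO and 108, 99.8, 118 and 91.2 CPM with rosiglitazone, also without overlap (log2 fold change 2.48, standard error 0.17, adjusted p = 5.12e-08). PLIN1, the adipocyte perilipin, stood at 1.22, 0.985, 0.612 and 0.642 and 3.56, 2.29, 3.03 and 3.3 CPM, with every treated library above the DMSO libraries (log2 fold change 1.82, adjusted p = 1.72e-06).

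The other calls of the list were enzymes, channels and a fusion factor. LIPE, the hormone-sensitive lipase, was at 50.8, 57.5, 50.3 and 53.5 CPM with DMSO and 191, 187, 215 and 184 CPM with rosiglitazone. The groups did not overlap, at a log2 fold change of 1.87 (standard error 0.13, adjusted p = 1.58e-08). AQP3, an aquaglyceroporin of the colon surface that passes water and glycerol, was at 139, 153, 144 and 154 CPM with DMSO and 503, 543, 558 and 501 CPM with rosiglitazone. It was among the 5 called genes with the largest gain in mean CPM, and its groups were far apart (log2 fold change 1.83, standard error 0.06, adjusted p = 2.95e-14). AQP7, the glycerol channel of adipocytes, moved from 0.241 ± 0.138 to 2.08 ± 0.199 CPM (log2 fold change 3.10, standard error 0.32, adjusted p = 3.87e-07), although near-identical copies of the gene make its counts uncertain. CIDEC, which fuses droplets, and AGPAT2, which makes phosphatidic acid for triglyceride synthesis, rose by 1.15 and 1.03. MOGAT2, the monoacylglycerol acyltransferase of the intestine, was at 0.102 and 0.426 CPM. Its adjusted p was 0.00969 and lay between 0.0115 and 0.0319, past the threshold in 0 of 8 fits, when 1 library was left out. PNPLA2, the adipose triglyceride lipase, and MGLL rose by 0.43 and 0.27, while the phosphatidate phosphatases LPIN1, LPIN3 and LPIN2 fell by 0.56, 0.47 and 0.19 on the log2 scale. With 1 library left out, the adjusted p of PNPLA2, LPIN3 and LPIN2 reached 0.0215, 0.035 and 0.0356. PNPLA2 missed the threshold in 8 of 8 such fits and LPIN2 and LPIN3 in 6 of 8 each, and the list's downward count was 1 in place of 3 without DMSO replicate 1 or 2, without rosiglitazone replicate 1 or 4 and with the replicate number as a block.

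The adipocyte markers taken as a list summed to 101.5 to 105.7 CPM with DMSO and 221 to 244 CPM with rosiglitazone. Most of this rise was LIPE, at 53 ± 3.3 CPM with DMSO and 194 ± 14 CPM with rosiglitazone (mean ± SD, n = 4). The LIPE values carry TMM scaling and the sums do not, so the share of LIPE in the rise cannot be read exactly from them. Of its 10 genes 6 had enough counts, and PLIN1, CIDEC, LIPE, AQP7 and FABP4 rose while PPARG fell. ADIPOQ, LEP, RETN and SLC2A4, the other markers of the list, were below the count filter, and RETN had no read in any of the 8 libraries.

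**Figure D2:**
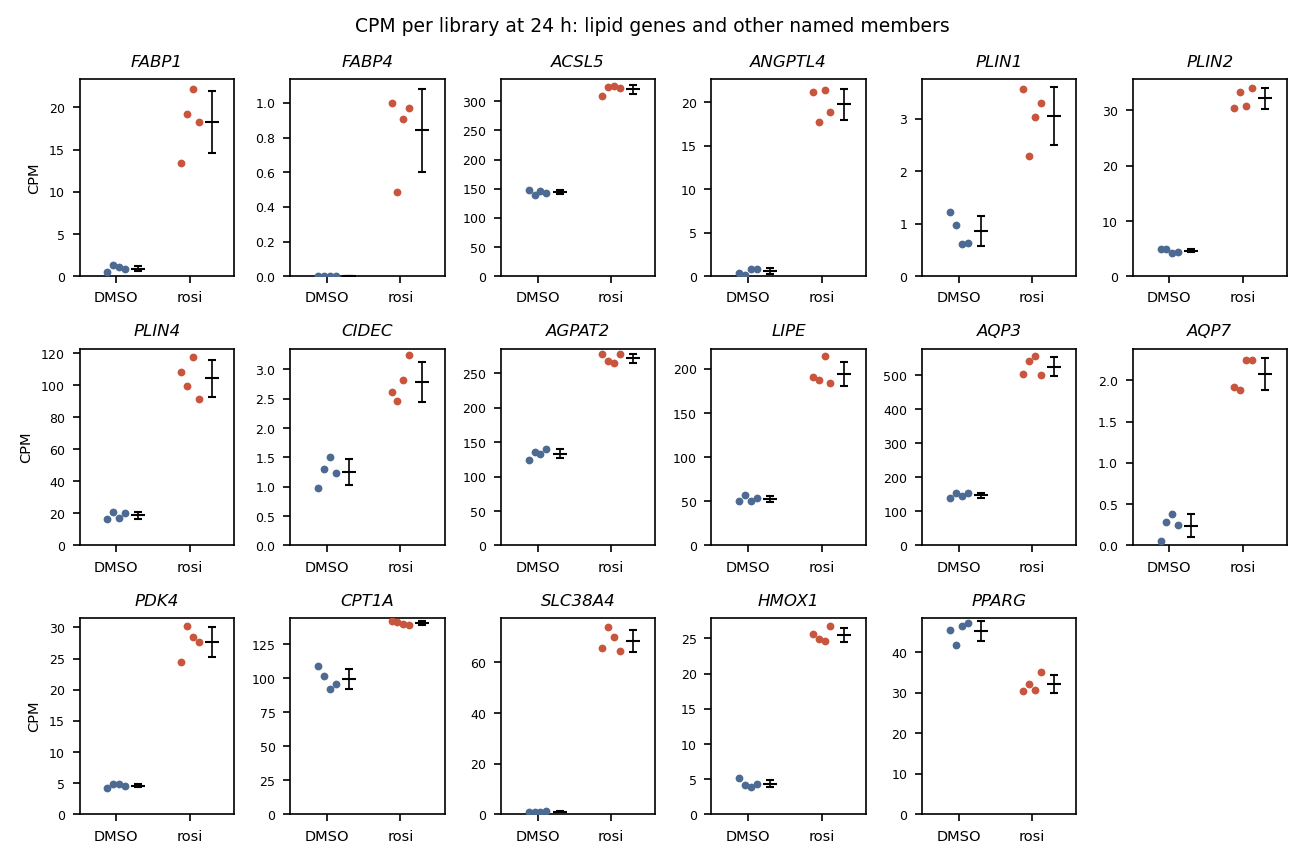
CPM (y axes, linear from 0) of 17 genes in each of the 4 DMSO and 4 rosiglitazone (rosi) libraries at 24 h, one point a library, with the mean ± SD beside them in black. The 4 treated points lie above the 4 DMSO points in every panel except that of PPARG, where they lie below.

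DR1-like letters were looked for in the promoters of the responding genes, since this is the element the PPARG and RXR dimer is known to bind. A pair of the half-site AGGTCA with any 1 base between them was searched with up to 2 mismatches on both strands. The window was the 250 bases before the gene start, for genes whose symbol matched a RefSeq promoter of GRCh38.p14. Of the 171 genes called higher 113 were searched, and of the 306 called lower 187. The other called genes were not searched, so nothing is known here of a match in them. A match was present in 6 of 113 promoters of genes called higher (5.31%), in 0 of 187 promoters of genes called lower, and in 220 of 11571 promoters of all tested genes (1.9%). With up to 3 mismatches the shares were 23.0%, 16% and 14.9%, and with up to 1 mismatch 0, 0 and 34 promoters matched. The other genes called higher with a match were CCDC33, FAM151A and RILP. The 3 promoters printed here belong to genes described for their response: FABP1 on chr2:88128063-88128312, AQP7 on chr9:33402569-33402818 and STRA6 on chr15:74212260-74212509, each on the minus strand and read 5′ to 3′ toward the start site. Capitals mark the matched 13 bases, where the pair of half-sites reads on the strand opposite to the gene.
FABP1: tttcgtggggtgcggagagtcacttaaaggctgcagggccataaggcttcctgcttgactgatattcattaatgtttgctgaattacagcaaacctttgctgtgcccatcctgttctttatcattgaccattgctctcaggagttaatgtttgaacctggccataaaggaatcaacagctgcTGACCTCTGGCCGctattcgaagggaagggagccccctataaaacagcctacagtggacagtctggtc
AQP7: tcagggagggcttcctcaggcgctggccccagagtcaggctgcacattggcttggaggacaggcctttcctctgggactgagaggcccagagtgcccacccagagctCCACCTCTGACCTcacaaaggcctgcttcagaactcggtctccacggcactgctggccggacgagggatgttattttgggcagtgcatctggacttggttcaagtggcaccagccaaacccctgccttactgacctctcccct
STRA6: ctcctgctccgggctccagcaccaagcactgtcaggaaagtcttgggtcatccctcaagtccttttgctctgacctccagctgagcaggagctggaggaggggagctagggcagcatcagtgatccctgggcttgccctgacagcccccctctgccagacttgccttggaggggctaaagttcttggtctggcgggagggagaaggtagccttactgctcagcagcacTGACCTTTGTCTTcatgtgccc

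The matched bases begin 68 bases before the start of FABP1, 143 before that of AQP7 and 22 before that of STRA6. A match describes letters in the window, and binding at these positions was not measured here. Response elements outside the window were not searched.

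Of 25 tested genes of mitochondrial fatty acid oxidation, 12 passed the test upward (48.0% against 5.79% of all genes), 0 passed downward and 13 did not pass, and none was called at 2-fold. The list's median log2 fold change was 0.28. CPT1A, the gate of fatty acid entry into mitochondria, was at 109, 101, 91.9 and 95.4 CPM with DMSO and at 142, 141, 139.7 and 139 CPM with rosiglitazone. The groups were separate at a log2 fold change of 0.50 (standard error 0.06, adjusted p = 1.49e-06). Among the acyl-CoA dehydrogenases, which take the first step of each cycle, ACADS rose by 0.67, ACADVL by 0.62 and ACADM by 0.49. ETFA, which accepts their electrons, rose by 0.57, and MLYCD, which removes the CPT1 inhibitor malonyl-CoA, by 0.57 on the log2 scale.

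Of 19 tested peroxisomal genes, 7 passed the test upward (36.8% against 5.79% of all genes), 0 passed downward and 12 did not pass, at a median of 0.23. EHHADH, the bifunctional enzyme of peroxisomal oxidation, rose by 0.81, and PEX11A, a protein of peroxisome division, by 0.73 on the log2 scale.

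Of 20 genes of pyruvate metabolism, 3 passed the test upward and 1 downward, and PDK4 was the only call. It encodes a kinase that switches off pyruvate dehydrogenase, and stood at 4.23, 4.83, 4.85 and 4.61 CPM with DMSO and 24.5, 30.3, 28.5 and 27.6 CPM with rosiglitazone. No treated library overlapped a DMSO library (log2 fold change 2.58, standard error 0.10, adjusted p = 1.5e-13). PDP1, a phosphatase that switches the complex back on, fell by 0.66 on the log2 scale (adjusted p = 9.85e-06). Glycolysis had 5 of 22 genes past the test upward and 3 downward, with HK2 at 0.65 and PFKFB4 at -0.75, and the TCA cycle 2 of 20 upward and 1 downward. The upward count of glycolysis was 2 with library size alone, and also 2 without DMSO replicate 2, 3 or 4 or rosiglitazone replicate 1, 2 or 4.

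Genes of lipid synthesis held few calls. Of 15 genes of fatty acid synthesis, 3 passed the test upward and 2 downward with none called, the largest being the elongase ELOVL1 at 0.83. Of 24 genes of cholesterol synthesis and uptake, 1 passed upward and 5 downward. Of 12 LXR targets, 5 passed upward (41.7% against 5.79% of all genes) and 1 downward (8.33% against 6.56%). LPCAT3, a phospholipid remodelling enzyme, was the only call among them (8.33% called higher against 0.785% of all genes). Its log2 fold change was 1.19 (standard error 0.05, adjusted p = 7.85e-13), and the receptor NR1H3 (LXRA) rose by 0.81. ABCA1, which exports cholesterol, fell by 0.95 on the log2 scale, from 4.92, 4.45, 4.8 and 4.33 CPM to 2.21, 2.29, 2.82 and 2.3 CPM.

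**Figure D3:**
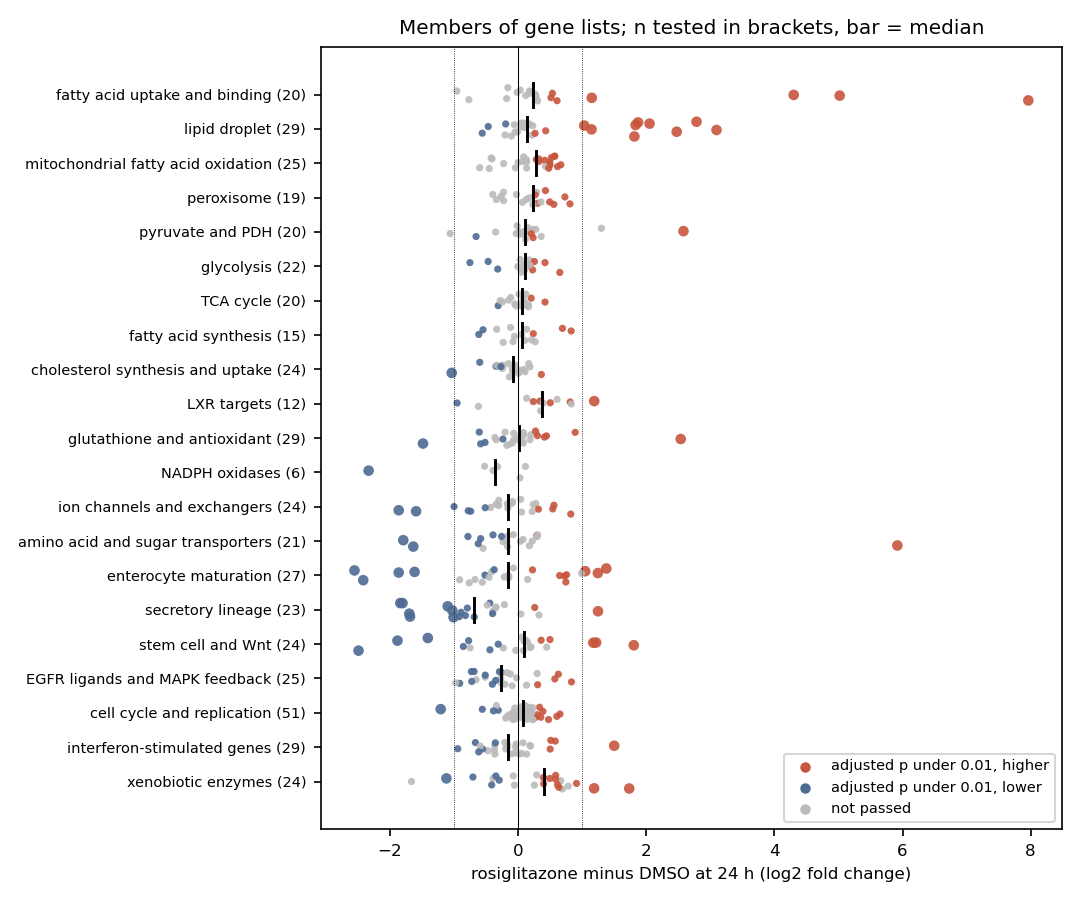
Log2 fold change (x axis) of every tested member of 21 gene lists at 24 h, one row a list and a black bar at its median. Members past the test at an adjusted p under 0.01 are red (higher) or blue (lower) and the rest grey, with larger points for members called at 2-fold. The point of FABP4 at the far right is a fitted value against 0 counts and no measure of its fold. The rows of mitochondrial oxidation and peroxisomes hold no blue point, while 14 of the 16 coloured points of the secretory lineage are blue.

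The largest fold change of any gene past the abundance limit of 1 on the average log2 CPM scale belonged to SLC38A4, a sodium-coupled transporter of neutral amino acids. It was at 1.08, 1.05, 1.04 and 1.37 CPM in the DMSO libraries and 65.5, 74, 70.1 and 64.6 CPM with rosiglitazone. The groups were apart by a log2 fold change of 5.92 (standard error 0.09, adjusted p = 1.20e-20). Of 21 amino acid and sugar transporters, SLC38A4 among them, 7 passed the test downward (33.3% against 6.56% of all genes) and 2 upward (9.52% against 5.79%). SLC6A20, the proline carrier of the gut, fell by 1.79, and SLC5A9, a sugar carrier, by 1.64 on the log2 scale. SLC38A11, a relative of SLC38A4 named by the size of its decrease, was at 8.36 ± 1.13 CPM with DMSO and 2.08 ± 0.639 CPM with rosiglitazone (mean ± SD, n = 4; log2 fold change -2.01).

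Of 24 ion channels and exchangers, 6 passed the test downward (25.0% against 6.56% of all genes) and 4 upward (16.7% against 5.79%). Both calls were downward. CFTR, the chloride channel of secreting crypts, was at 64.9, 72.2, 82.5 and 62.7 CPM with DMSO and 20.8, 24.3, 27.3 and 21.3 CPM with rosiglitazone. The groups did not overlap (log2 fold change -1.59, standard error 0.09, adjusted p = 4.93e-11). AQP1, a water channel whose relatives AQP3 and AQP7 rose by 1.83 and 3.10, was at 17.7, 18.2, 15.4 and 13.2 CPM with DMSO and 4, 4.26, 4.6 and 4.88 CPM with rosiglitazone, again with separate groups (log2 fold change -1.86, standard error 0.12, adjusted p = 1.95e-10). SLC12A2, which loads chloride for CFTR, lay just short of a 2-fold decrease, from 665 ± 64.7 to 333 ± 14.1 CPM (adjusted p = 2.64e-10).

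HMOX1 and NOX1 had the largest changes past the test of the antioxidant and NADPH oxidase lists, in opposite directions. HMOX1, the stress-induced enzyme that breaks down heme, was at 5.14, 4.23, 3.86 and 4.3 CPM with DMSO and 25.6, 24.9, 24.6 and 26.8 CPM with rosiglitazone. The groups were far apart (log2 fold change 2.54, standard error 0.09, adjusted p = 4.28e-14). NOX1, the NADPH oxidase of the colon, was at 6.78, 7.53, 10.4 and 7.54 CPM with DMSO and 1.18, 1.54, 1.66 and 2.06 CPM with rosiglitazone. It fell in all 4 libraries below the DMSO range (log2 fold change -2.33, standard error 0.18, adjusted p = 8.08e-09), and it was the only 1 of 6 NADPH oxidase genes to pass the test. Of 29 glutathione and antioxidant genes 6 passed upward, 5 passed downward and 18 did not pass. Apart from HMOX1, only GPX8 was called, at 0.502 and 0.176 CPM, and its adjusted p of 0.00333 ran from 8.27e-04 to 0.0159 with 1 library left out. SQSTM1, an autophagy receptor that takes part in the oxidative stress response, was among the largest gains in mean CPM of called genes, from 359 ± 22.9 to 718 ± 17.9 CPM (mean ± SD, n = 4), at the threshold with a log2 fold change of 1.001.

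Among 24 xenobiotic enzymes 10 passed the test upward (41.7% against 5.79% of all genes) and 5 downward (20.8% against 6.56%). CYP2B6 and CYP4F12, monooxygenases of drugs and fatty acids, were called higher at 1.74 and 1.19, and CYP2W1, an orphan enzyme found in colon tumours, lower at -1.12. UGT1A1, UGT1A6, UGT1A8, UGT1A9 and UGT1A10, glucuronosyltransferases that share exons so that their counts are not independent, rose by 0.50 to 0.64. Upward passes from these genes are therefore not separate results, and the upward share of the list may be inflated by them. AADAC, an esterase of the endoplasmic reticulum named by its fold change, moved from 1.81 ± 0.375 to 7.93 ± 1.03 CPM (log2 fold change 2.14, standard error 0.15, adjusted p = 1.32e-09).

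Of 23 tested genes of the secretory lineage of the intestine, 14 passed the test downward (60.9% against 6.56% of all genes) and 2 upward, 7 were called lower and 1 higher, and the median log2 fold change was -0.68. ATOH1, the transcription factor that commits crypt cells to goblet, Paneth and enteroendocrine fates, was at 5.14, 5.08, 6.38 and 4.88 CPM with DMSO and 1.54, 1.57, 1.35 and 1.7 CPM with rosiglitazone. DMSO replicate 3 was the highest, yet all treated libraries lay below all DMSO libraries (log2 fold change -1.80, standard error 0.13, adjusted p = 2.31e-09). GFI1, a repressor that acts after ATOH1, was at 1.05, 0.858, 1.06 and 0.977 CPM with DMSO and 0.205, 0.343, 0.282 and 0.273 CPM with rosiglitazone, also without overlap (log2 fold change -1.84, standard error 0.26, adjusted p = 2.60e-05). The Notch ligands DLL1 and DLL4, which mark secretory precursors, fell by 1.69 and 1.70 on the log2 scale. SOX4 and FOXA3 fell by 1.01 and 1.10, and the goblet cell factor SPDEF by 0.82.

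MUC2, the gel-forming mucin of the colon, was at 67.1, 74.1, 59.4 and 70.3 CPM with DMSO and 28.4, 24.3, 48.7 and 31.9 CPM with rosiglitazone. The groups did not overlap, and its log2 fold change was -1.03 with an adjusted p of 0.009, which lay between 0.00193 and 0.0317 and missed the threshold in 7 of 8 fits when 1 library was left out. The trefoil peptide TFF3 fell by 0.79, REG4, a secreted lectin, by 0.40 and AGR2, a folding factor for mucins, by 0.68 on the log2 scale. TFF2, the trefoil peptide of the stomach, was the 1 member called higher, at 0.726 and 1.73 CPM, with an adjusted p of 0.00474 and a range of 0.00204 to 0.0204 with 1 library left out. CREB3L1, a membrane-bound factor that equips cells for secretion, had the largest loss in mean CPM of all called genes, from 319, 367, 324 and 332 CPM with DMSO to 76.6, 74.6, 87.8 and 76.1 CPM with rosiglitazone. The groups were far apart (log2 fold change -2.09, standard error 0.13, adjusted p = 3.42e-09).

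Genes of the mature enterocyte moved in both directions. Of 27 tested, 8 passed the test upward (29.6% against 5.79% of all genes) and 6 downward (22.2% against 6.56%). Called were 3 higher (11.1% against 0.785%) and 4 lower (14.8% against 1.4%). The number called lower was 2 without DMSO replicate 2 or without rosiglitazone replicate 1, 2 or 4. KRT20, a keratin of surface cells, was at 266, 245, 252 and 257 CPM with DMSO and 648, 673, 657 and 670.3 CPM with rosiglitazone. The groups did not overlap (log2 fold change 1.38, standard error 0.05, adjusted p = 7.10e-14). CEACAM5 and CEACAM6, adhesion proteins of the surface epithelium whose close similarity makes their split of reads uncertain, rose by 1.25 and 1.05. MUC13, a membrane mucin, was at 90.9, 104, 116 and 95.7 CPM with DMSO and 32.2, 32.8, 32.8 and 34.9 CPM with rosiglitazone, with separate groups (log2 fold change -1.62, standard error 0.07, adjusted p = 2.18e-13). SI, the sucrase-isomaltase of the brush border, fell by 2.55 on the log2 scale from 2.29 to 0.393 CPM. GUCA2B, which encodes the peptide uroguanylin, and MEP1A, a brush border protease, were called at -2.42 and -1.86, with adjusted p up to 0.0333 and 0.0553 when 1 library was left out, and the GUCA2B groups overlapped.

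**Figure D4:**
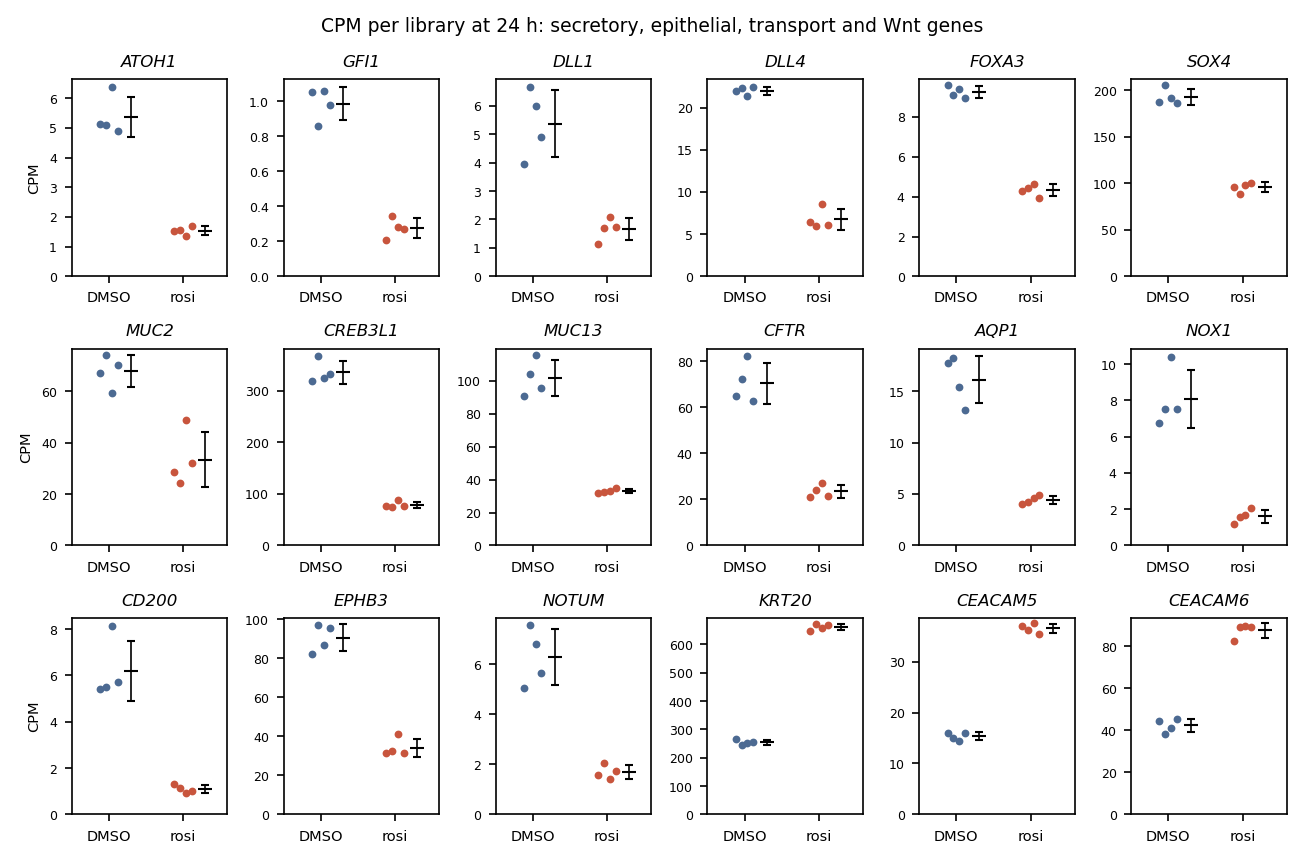
CPM (y axes, linear from 0) of 18 secretory, surface, transport and Wnt genes in each of the 4 DMSO and 4 rosiglitazone (rosi) libraries at 24 h, one point a library, with the mean ± SD beside them in black. KRT20, CEACAM5 and CEACAM6 are higher with rosiglitazone and the other 15 genes lower, and no group overlaps the other in any panel.

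Stem cell and Wnt genes had no common direction, with 5 of 24 past the test upward (20.8% against 5.79% of all genes) and 7 downward (29.2% against 6.56%). WNT11, a ligand of noncanonical Wnt signalling, was at 25.2, 25.7, 23.7 and 26.1 CPM with DMSO and 90.8, 83.4, 86.6 and 91 CPM with rosiglitazone. The groups were far apart (log2 fold change 1.81, standard error 0.07, adjusted p = 1.25e-13). NKD2, an inhibitor of Wnt signalling, and the ephrin receptor EPHB2 rose by 1.22 and 1.17, while the related receptor EPHB3 fell by 1.41. NOTUM, a secreted enzyme that inactivates Wnt ligands, was at 5.07, 7.56, 6.82 and 5.67 CPM with DMSO and 1.59, 2.06, 1.41 and 1.73 CPM with rosiglitazone. Its groups did not overlap (log2 fold change -1.88, standard error 0.24, adjusted p = 1.68e-05). CD200, a surface glycoprotein that restrains myeloid cells, had the largest decrease among genes past the same abundance limit, from 6.2 ± 1.3 to 1.1 ± 0.186 CPM (log2 fold change -2.49, standard error 0.17, adjusted p = 7.19e-10). AXIN2, a feedback target of canonical Wnt signalling, fell by 0.44, and MYC rose by 0.36 on the log2 scale.

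Cell cycle genes held 1 call. Of 51 tested, 8 passed the test upward (15.7% against 5.79% of all genes), or 4 with library size alone, and 4 downward (7.84% against 6.56%). The call was CDKN1C, an inhibitor of cyclin-dependent kinases, at -1.21 (standard error 0.21, adjusted p = 5.20e-04). The related inhibitors CDKN1A and CDKN1B fell by 0.56 and 0.38, and MYBL2 and CDC20, genes of dividing cells, rose by 0.65 and 0.61 on the log2 scale. Of 25 EGFR ligands and MAPK feedback genes, 4 passed upward and 9 downward with none called. The ligands EREG and AREG fell by 0.73 and 0.69, and the MAPK phosphatase DUSP4 by 0.91, while the ligand HBEGF rose by 0.83. Of 16 AP1 and immediate early genes 4 passed upward (25.0% against 5.79% of all genes) and 2 downward (12.5% against 6.56%). FOS, a subunit of AP1, was called higher at 1.11 (standard error 0.08, adjusted p = 2.01e-09), and CTGF, a matricellular protein, lower at -1.88 (standard error 0.17, adjusted p = 3.34e-08).

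Other stress, immune and adhesion lists held few calls by number. In each of them, the shares past the test lay above the 5.79% upward and 6.56% downward of all genes. Of 25 stress and apoptosis genes 2 passed upward and 9 downward, and the only call was VLDLR, a lipoprotein receptor, at 1.79, 1.91, 2.05 and 2.26 CPM with DMSO and 7.46, 7.34, 7.85 and 7.09 CPM with rosiglitazone. Its groups were separate (log2 fold change 1.89, standard error 0.11, adjusted p = 4.93e-11). Of 29 interferon-stimulated genes 4 passed upward and 5 downward, and OAS1, an antiviral enzyme, was called higher at 1.5 while MX1 fell by 0.94 on the log2 scale. Chemokine and NFKB feedback genes had 3 of 18 upward and 2 downward with none called. Of 25 adhesion and matrix genes 8 passed upward and 6 downward. The calls were TGFBI, an extracellular matrix protein, at -1.03 and the membrane protease MMP14 at -1.07. LUM, a fibroblast marker, was called higher at 1.21, from 0.787 to 1.82 CPM.

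The remaining genes with the largest changes belonged to no list. HR, a nuclear corepressor best known from hair growth, was at 5.19, 6.55, 5.01 and 4.58 CPM with DMSO and 44.6, 38.8, 49.1 and 52 CPM with rosiglitazone. The groups were far apart (log2 fold change 3.12, standard error 0.18, adjusted p = 2.39e-09). PHLDA3, a target of p53 that restrains AKT, had the smallest standard error of the named genes that rose beyond 4-fold, from 17.4 ± 0.687 to 75.8 ± 3.48 CPM (log2 fold change 2.12, standard error 0.07, adjusted p = 5.73e-15). SEMA7A, a membrane-anchored semaphorin, PRSS12, a secreted protease, and STRA6, the cellular receptor for retinol binding protein, rose by 2.76, 2.06 and 1.98. TINAGL1, a matrix glycoprotein, had the largest gain in mean CPM of all called genes, from 388 ± 32.4 to 809 ± 22.9 CPM, and EPHB6 moved from 165 ± 23.8 to 375 ± 26.8 CPM (mean ± SD, n = 4).

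On the lower side, ITGA1, the collagen-binding integrin alpha chain, was at 36.3, 35.8, 46.8 and 34.4 CPM with DMSO and 10.7, 11, 11.2 and 9.73 CPM with rosiglitazone. Its groups did not overlap (log2 fold change -1.85, standard error 0.10, adjusted p = 1.54e-11). STEAP4, a metalloreductase, and SYTL2, an effector of vesicle traffic, fell by 2.01 and 1.99 on the log2 scale. The tyrosine phosphatase PTPRO and the neurotrophin BDNF fell by 2.27 and 2.24, and the noncoding RNA NCRNA00261, the lectin gene CLEC3A and the transcription factor ATOH8 by 2.16, 2.16 and 1.84. HES6, an inhibitor of HES1, and RAP1GAP, which inactivates the GTPase RAP1, were among the largest losses in mean CPM of called genes, from 189 ± 12.3 to 84.1 ± 4.41 CPM and from 166 ± 10.2 to 73 ± 4.13 CPM (mean ± SD, n = 4).

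The 24 h response was set against that at 48 h, measured in a separate set of 8 libraries with their own DMSO group. The difference of the 2 responses was tested as an interaction over all 32 RNA libraries, where 564 of 23140 genes (2.44%) differed at an adjusted p under 0.01. Among the 477 genes called at 24 h, 54 differed, 41 with a larger and 13 with a smaller change at 48 h. PLIN2 went from 2.79 to 4.18 (difference 1.41, standard error 0.23, adjusted p = 2.23e-04), and SQSTM1 from 1.001 to 1.84 (adjusted p of the difference 5.85e-04). ATOH1 deepened from -1.80 to -4.32 (difference -2.5, standard error 0.41, adjusted p = 1.79e-04), as did NOX1 from -2.33 to -3.61, DLL1 from -1.69 to -2.91 and CFTR from -1.59 to -2.28.

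Fewer genes had their larger response at 24 h. AQP3 went from 1.83 at 24 h to 1.31 at 48 h (difference -0.51, standard error 0.10, adjusted p = 9.47e-04), and OAS1 from 1.5 to 0.60 (adjusted p = 1.27e-04). For SLC38A4 the values were 5.92 and 6.18, for FABP1 4.30 and 3.96 and for HMOX1 2.54 and 2.91, with adjusted p of the difference at 0.363, 0.691 and 0.254. The count of 54 fell to 35 without DMSO replicate 4 of 24 h and to 35 without rosiglitazone replicate 3 of 48 h, and it rose to 85 without rosiglitazone replicate 1 of 48 h.

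**Figure D5:**
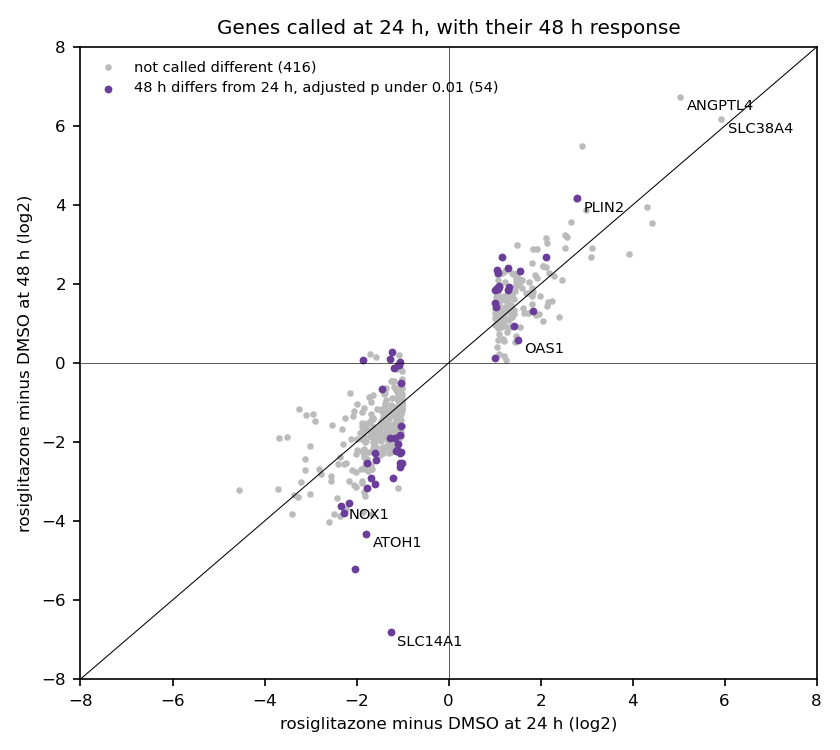
Log2 fold change with rosiglitazone at 48 h (y axis) against that at 24 h (x axis) for the 169 genes called higher and 301 called lower at 24 h that were also tested at 48 h, one point a gene, with the line of equal response. Purple points are the 54 genes whose response differed between the times, and those with a larger change at 48 h, such as PLIN2 and ATOH1, lie farther from 0 on the y axis than on the x axis.

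Cells treated with the LXR agonists GW3965 and T0901317, both at 10 μM for 24 h, share the same DMSO libraries, so each treatment's values are given side by side and the drugs were compared directly. Over all genes, 10.9% differed between rosiglitazone and GW3965 and 14.2% between rosiglitazone and T0901317 at an adjusted p under 0.01. SLC38A4 was at 5.92 with rosiglitazone, 1.99 with GW3965 and -0.02 with T0901317 on the log2 scale, and rosiglitazone exceeded GW3965 by 3.93 (adjusted p = 4.10e-19). PDK4 was at 2.58, 1.47 and 0.26 and PLIN2 at 2.79, 1.58 and 0.61 in the same order. For these genes rosiglitazone exceeded GW3965 by 1.11 and 1.20 (adjusted p = 1.70e-08 and 5.56e-09).

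Some other genes that rose with rosiglitazone were near 0 on the log2 scale with both LXR agonists. LIPE was at 1.87, -0.02 and -0.10, with a difference of 1.90 from GW3965 (adjusted p = 1.34e-08), and AQP3 at 1.83, 0.12 and -0.07, with a difference of 1.72 (adjusted p = 3.83e-14). HMOX1 was at 2.54, 0.24 and 0.10 (difference from GW3965 2.30, adjusted p = 6.72e-14), and FABP4 had 0 counts in all GW3965 and T0901317 libraries. ABCA1, an LXR target, was at -0.95 with rosiglitazone but at 4.61 and 3.71 with the LXR agonists. Not all genes called higher with rosiglitazone rose less with the LXR agonists. LPCAT3 was at 1.19, 1.56 and 1.19 and CYP4F12 at 1.19, 2.52 and 2.15 with rosiglitazone, GW3965 and T0901317.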

How the data were processed

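RNA-seq of HT29 cells treated with DMSO or 10 μM rosiglitazone for 24 h was used, with 4 libraries per group, beside the GW3965, T0901317 and 48 h libraries that share the fits. The authors sequenced Nextera libraries of mRNA from both ends and deposited unnormalized integer counts for Ensembl genes. The submitters' processing notes name TopHat, Cufflinks and hg19 without roles, and the strand setting is not given in the sources that were read.

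Counts of the 16 libraries of 24 h were filtered by filterByExpr, scaled by TMM and fitted with the robust quasi-likelihood test of edgeR 4.0.16 in R 4.3.3. The standard error of a log2 fold change was its size divided by the square root of F. The 48 h minus 24 h difference was an interaction in a fit of 32 libraries. DESeq2 1.42.0, with limma 3.58.1 loaded by edgeR, other scalings, no filter, the 8 libraries alone, a replicate block, glmTreat and leaving out each library were alternatives. Scripts were tested on simulated data. Promoters were from RefSeq GRCh38.p14, searched in Python 3.11.15 with pandas 2.3.3 and numpy 2.4.6, and plots used matplotlib 3.10.9.

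Groups came from the labels. The members and gene lists were chosen with earlier results of these data known. Genes named were called list members, PPARG, RXRA, PDK4, ANGPTL4, PLIN2, FABP4 and CPT1A, the 15 largest increases and 15 largest decreases without overlap between groups at an average log2 CPM not below 1, and the 5 largest gains and losses of mean CPM, and some genes chosen in this way are not reported here. List members that passed the test below 2-fold, and genes given only for a promoter match, were named after their values were seen. The deposited peak scores of the ChIP-seq files, H3K27ac among them, were not analysed here.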

Additional observations from a re-analysis of the deposited data

Results flagged for a closer look

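In the named genes, single libraries stood far from the other 3 of their group by Dixon's criterion. Chance alone meets it in about 1 of 20 groups, and it was met 20 times in the 296 groups of 4 libraries looked at. DMSO replicate 3 was the highest of its group for ATOH1 (6.38 CPM), CD200 (8.14 CPM), ITGA1 (46.8 CPM) and SLC12A2 (762 CPM), and the lowest for SLC27A4 (47.6 CPM), TINAGL1 (340.0 CPM) and TRPM5 (1.91 CPM). Other DMSO libraries stood apart for SLC38A4, where replicate 4 was the highest at 1.37 CPM, for PEX11A, where replicate 2 was the lowest at 6.36 CPM, and for C11orf53, where replicate 1 was the lowest at 0.856 CPM. Rosiglitazone replicate 3 was the highest of its group for ABCA1 (2.82 CPM), AXIN2 (43.0 CPM), CREB3L1 (87.8 CPM), EPHB3 (41.0 CPM) and RARRES2 (1.35 CPM), and the lowest for SPDEF (33.6 CPM). Rosiglitazone replicate 1 was the lowest for ACSL5 (309 CPM) and CEACAM6 (82.4 CPM) and the highest for CTGF (1.62 CPM). Rosiglitazone replicate 4 was the highest for POU2F3 (0.455 CPM).

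The response at 48 h minus that at 24 h passed the interaction test for 15 of the named genes that were called at 24 h. It was above 0 for PLIN2 (1.41 on the log2 scale), SQSTM1 (0.85), GPC1 (0.81), PHLDA3 (0.57) and AGPAT2 (0.40), all of which rose at 24 h. It was below 0 for ATOH1 (-2.5), NCRNA00261 (-1.37), NOX1 (-1.25), DLL1 (-1.21), C11orf92 (-0.74), HES6 (-0.71), CFTR (-0.67) and TGFBI (-0.54), all of which fell at 24 h. OAS1 (-0.89) and AQP3 (-0.51) rose at 24 h and had a smaller change at 48 h. Named genes short of a call are not in this count. Some of them also passed the interaction test, such as REG4 (-2.75), TFF3 (-1.60) and PPARD (1.02). ABCA1, LPIN1 and CDKN1A passed it too, with log2 fold changes of -0.95, -0.56 and -0.56 at 24 h. At 48 h they were at 0.46, 0.25 and 0.19, with none at an adjusted p under 0.01 at that time.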

How the results depend on the processing

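The counts of genes called at 2-fold, 171 higher and 306 lower, were 173 and 304 with DESeq2 (where 2114 genes had no adjusted p), 175 and 296 with RLE scaling, 177 and 306 with no filter on low counts, 178 and 300 in a fit of the 8 libraries alone, and 134 and 415 with library size alone. A test against a fold change of 1.5 (glmTreat) gave 137 higher and 171 lower genes, of which 109 and 158 were among those called at 2-fold. By the construction of the test these counts are below the 389 and 684 genes called at an estimated fold of at least 1.5. With 1 library left out, the counts ran from 158 to 173 higher and from 254 to 310 lower. Same-numbered DMSO and rosiglitazone libraries showed no clear joint deviation (correlations of 0.0792, -0.0267, -0.0459 and -0.0230). With so few libraries a group, these values cannot exclude a pairing or a shared batch. A fit with the replicate number as a block gave 166 and 298. The count of 24 h genes whose response differed at 48 h was 54, 30 in a fit of the 16 DMSO and rosiglitazone libraries alone, and 35 to 85 with 1 library left out; the cause was not tested. For the 148 named genes, 1553 of 1624 values (library size alone, the 8 libraries, the block and 1 library left out) kept their direction and side of the threshold, 70 lost the threshold, and no gene past the test changed sign. The values that lost it belonged to PNPLA2, MOGAT2, MUC2, LPIN3, LPIN2, MEP1A, TFF2, GUCA2B, B3GNT6, GPX8 and MGLL, and with the block to PNPLA2, LPIN3, LPIN2, MEP1A and TFF2 (adjusted p up to 0.0158). With library size alone, the members past the test fell from 5 to 3 upward for LXR targets, 8 to 4 for the cell cycle, 8 to 5 for adhesion, 3 to 1 for chemokines and 3 to 1 for pyruvate, and rose from 5 to 8 downward for glutathione. Leaving out 1 library took the downward counts of cholesterol, interferon and xenobiotic genes and of glutathione from 5 to 3 at the lowest. PPARG and H3K27ac sites near the genes were planned but not run, since no hg19 gene positions were used here. At this depth, genes at a few counts a library limit the precision, and folds against 0 counts are bounds.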

Other observations

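The genes given here were chosen after their values were seen, from no fixed list, and their number says nothing of a pathway. STRA6, which imports retinol, was at 3.89, 3.37, 2.35 and 2.9 CPM with DMSO and 10.3, 11.1, 16.5 and 11.6 CPM with rosiglitazone at 24 h. Its groups did not overlap (log2 fold change 1.98, standard error 0.19, adjusted p = 1.52e-07). RBP4, the carrier of retinol, moved from 2.83 ± 0.348 to 6.02 ± 0.463 CPM (mean ± SD, n = 4; log2 fold change 1.10, adjusted p = 1.80e-06), and RETSAT, a retinol saturase that is a known PPARG target in fat, from 41 ± 2.07 to 85.5 ± 3.26 CPM (log2 fold change 1.06, adjusted p = 3.92e-11). DHRS9, a retinol dehydrogenase, and CYP26B1, which degrades retinoic acid, rose by 2.12 and 2.52, the latter from a low level of 0.118 CPM. RARRES2 and RARRES3, both named for their induction by a retinoid, fell by 1.10 and 1.19 on the log2 scale.

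POU2AF1, a coactivator of POU2 factors, was at 2.89, 2.61, 3.01 and 2.43 CPM with DMSO and 0.256, 0.371, 0.344 and 0.273 CPM with rosiglitazone (log2 fold change -3.13, standard error 0.20, adjusted p = 3.24e-10). Its neighbours C11orf53, C11orf92 and C11orf93 fell by 1.62, 1.77 and 1.21, and the taste channel TRPM5 by 1.24 on the log2 scale. POU2F3, the tuft cell factor itself, was at -0.40 (adjusted p = 0.547). It had only 50 counts over the DMSO group and 35 over the rosiglitazone group. With 1 library left out its log2 fold change ran from -0.81 to 0.05, so its direction is not resolved here. The glycosyltransferases ST6GALNAC1, B3GNT6 and GCNT1 fell by 3.20, 1.23 and 1.44, and the adjusted p of B3GNT6 reached 0.0174 with 1 library left out. The membrane mucin MUC20 and the goblet cell stress sensor ERN2 fell by 1.06 and 1.02.

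MIR149 lies within its host gene GPC1, so their reads cannot be told apart without strand or transcript models. Their log2 fold changes were 1.54 and 1.54.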
